A study of Mus musculus with 6 samples.

Results

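NF-κB subunits and their inhibitors were followed in virus-specific CD4+ T cells sorted into CD25-high and CD25-low fractions of mouse spleen on day 5 of infection with lymphocytic choriomeningitis virus. The set was chosen by name as 10 genes of the pathway, and all 10 had a row among the 15445 genes of the deposited table. It holds the 5 DNA-binding subunits Nfkb1, Nfkb2, Rel, Rela and Relb, the 4 IκB proteins Nfkbia, Nfkbie, Nfkbid and Nfkbiz, and the ubiquitin-editing enzyme Tnfaip3. CD25 is the alpha chain of the high-affinity interleukin-2 receptor, and it was the surface marker of the sort. There were 3 CD25-high and 3 CD25-low libraries. Every library came from transgenic T cells of one receptor specificity, of strain C57BL/6, sorted on CD4 and Thy1.1, so both groups share the transgene and the infection and no uninfected group was analysed here. A single receptor specificity limits the cells as a model of a mixed response. Whether the libraries stem from separate animals is not stated. Each p-value thus sets the difference between the groups against variation among these 6 libraries, part of which may be technical.

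NF-κB is a family of dimeric transcription factors that is held in the cytoplasm by IκB proteins until a receptor signal triggers their breakdown. In T cells the antigen receptor signals to NF-κB through protein kinase C theta, Bcl10 and Malt1, and receptors of the tumour necrosis factor family signal through TRAF adaptors. Several inhibitors of the pathway are themselves NF-κB target genes, which makes them both brakes and readouts of the factor.

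The sort marker was checked first. Il2ra had 1540, 432 and 666 CPM (counts scaled to the adjusted library size) in the CD25-high libraries 1, 2 and 3, against 20.7, 29.4 and 35.7 CPM in the CD25-low libraries 1, 2 and 3. Library totals lay between 16787233 and 23567066 counts, of which 32.04% to 38.27% fell on mitochondrial genes. The 10 T cell markers summed to 2980 to 3150 CPM in CD25-high against 2990 to 4000 CPM in CD25-low libraries, with Cd3e at 1180 to 1680 CPM and Cd4 at 474 to 788 CPM over all 6. None of the 10 passed without a block (2 at an unadjusted p under 0.05, beside 11.1% of all tested genes). With the block 2, Cd3d and Cd3g, were lower in CD25-high cells, beside 2.90% of all tested genes called lower. Of the 10 markers, 7 had a fitted value below 0 and 3 above it, beside 6392 of 12987 tested genes below 0. Thy1, the gene of the sort marker Thy1.1, was higher in CD25-high cells at every library number. It had 97.8, 270 and 274 CPM in the CD25-high libraries, against 54.0, 206 and 207 CPM in the CD25-low ones (edgeR adjusted p 0.803, and 0.0753 with the block). Of 10 B cell markers, 6 had no row, Cd79a and Ms4a1 among them, and the others summed to 2.14 to 7.94 CPM in CD25-high against 2.79 to 5.21 CPM in CD25-low libraries, led by Cr2 and Fcer2a. Of 12 myeloid and dendritic markers 4 had no row, and the rest summed to 37.5 to 101 CPM in CD25-high against 19.3 to 57.1 CPM in CD25-low libraries. The marker with the most counts was Itgam, which activated T cells can express too (56.6 ± 30.9 CPM in CD25-high against 21.1 ± 14.3 CPM in CD25-low cells, SD over 3 libraries each), while Lyz2 stayed at 0.724 CPM or less and Zbtb46 lay at 4.46 to 14.7 CPM. In CD25-low library 1, with 5.03 CPM, Itgam was below Zbtb46 and Cd68. Itgam was called higher in CD25-high cells with the replicate block (edgeR adjusted p 0.00130) and shares 3450 exonic bases with Gm49368 on its own strand. The part of these other cell types in the levels of the members was not tested. CD8 and natural killer markers, led by Cd8b1 and Klrb1c, summed to 4.05 to 5.61 CPM in CD25-high against 1.97 to 4.43 CPM in CD25-low libraries, and erythroid and platelet markers, led by Alas2 and Ppbp, to 2.27 to 2.99 CPM in CD25-high against 2.07 to 4.10 CPM in CD25-low libraries. The libraries numbered 1 stood somewhat apart from the others, and some of the results are given with and without them.

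Tnfaip3 and Nfkbiz were the members whose groups were cleanly separated, and both were lower in CD25-high cells. Tnfaip3 (ENSMUSG00000019850, minus strand of chr10:19000910-19015657, GRCm38) encodes A20, an enzyme that edits ubiquitin chains and thereby ends NF-κB signalling. It had 23.5, 21.1 and 23.8 CPM in the CD25-high libraries 1, 2 and 3, against 44.6, 43.8 and 48.2 CPM in the CD25-low libraries 1, 2 and 3. All CD25-high libraries lay below all CD25-low libraries, and the SD within a group was 1.45 CPM in CD25-high against 2.37 CPM in CD25-low cells. The fitted level in CD25-high cells was 0.501 times that in CD25-low cells (log2 fold change -1.0 ± 0.21, SE, with a 95% interval of -1.47 to -0.52). The difference between same-numbered libraries was nearly constant, at -0.93, -1.05 and -1.02 on the log2 CPM scale for numbers 1, 2 and 3.

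Nfkbiz (ENSMUSG00000035356, minus strand of chr16:55811375-55838899) encodes IκBζ, a nuclear IκB protein that works with NF-κB on a subset of its target genes. It had 117, 147 and 140 CPM in the CD25-high libraries 1, 2 and 3, against 214, 212 and 215 CPM in the CD25-low libraries 1, 2 and 3. The CD25-low libraries were almost equal, the CD25-high libraries spread more widely, and the groups did not overlap. The fitted log2 fold change was -0.67 ± 0.18 (SE), with a 95% interval of -1.07 to -0.26. Between same-numbered libraries it was -0.88, -0.53 and -0.62.

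The call on these genes depended on the model. In edgeR's quasi-likelihood test with the group as the only term, 0 of the 10 members passed an adjusted p of 0.05, where 0.655% of the 12987 tested genes did. The adjusted p was 0.0834 for Tnfaip3 and 0.183 for Nfkbiz. At an unadjusted p under 0.05 these 2 members passed, against 11.1% of all tested genes. With the replicate number as a block, which compares same-numbered libraries, both passed as lower in CD25-high cells (edgeR adjusted p 0.0143 for Tnfaip3 and 0.0240 for Nfkbiz), while 2.90% of all tested genes were called lower. DESeq2, without a block, called both lower as well (adjusted p 0.00171 for Tnfaip3 and 0.0457 for Nfkbiz), where 1.87% of the genes it tested were called lower, and limma voom called neither (0.0808 for Tnfaip3 and 0.151 for Nfkbiz). The separation of the groups in 2 of 10 members stands beside 9.54% of all tested genes whose CD25-high libraries all lay below the CD25-low libraries. With the block and without the libraries numbered 1, 2 or 3, the adjusted p of Tnfaip3 was 0.0322, 0.0744 or 0.0558, and that of Nfkbiz was 0.0824, 0.0382 or 0.0690. The CD3 chain genes Cd3d and Cd3g were lower in CD25-high cells with the block as well, while 3 of the 10 T cell markers were fitted above 0. Cd3d had 37.4, 64.2 and 79.7 CPM in the CD25-high libraries, against 110, 133 and 109 CPM in the CD25-low ones (adjusted p 0.204, and 0.0134 with the block), and Cd3g 54.8, 106 and 101 CPM in the CD25-high libraries, against 133, 179 and 149 CPM in the CD25-low ones (0.279, and 0.0135 with the block). Their part in the result was not tested. These are bulk RNA samples, in which fewer expressing cells and less RNA per cell cannot be told apart.

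**Figure D1:**
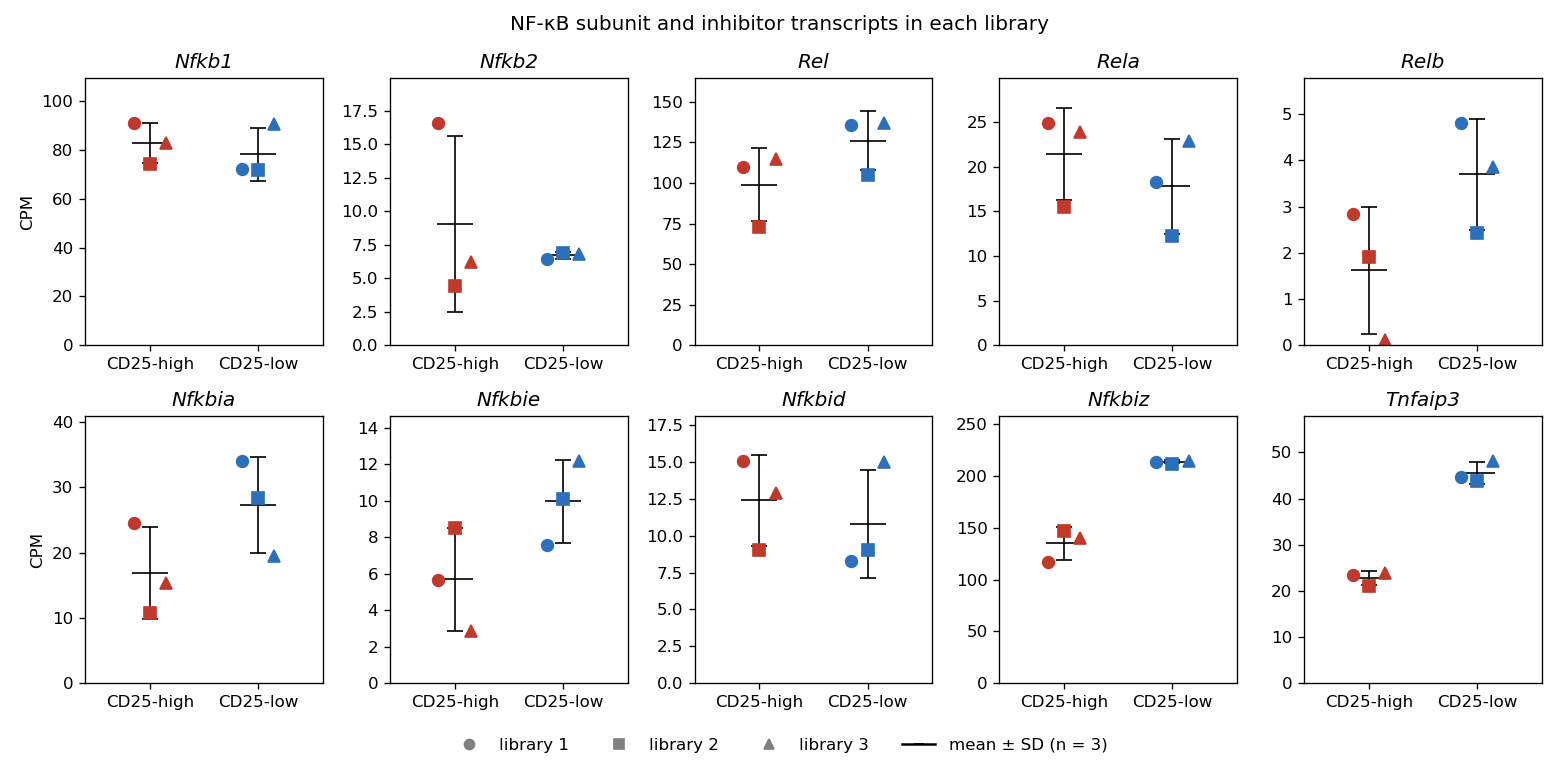
CPM (vertical axes, from 0, scaled per gene) of the 10 members in 3 CD25-high (red, left) and 3 CD25-low libraries (blue, right). Marker shapes give the library number, and black bars the mean ± SD. Only in the panels of Nfkbiz and Tnfaip3 do all CD25-high points lie below all CD25-low points.

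Promoter sequence was compared because many inhibitors of NF-κB are themselves its targets. Windows of 300 bases, from 250 before to 50 after an annotated start, were taken from RefSeq (GRCm38.p6) and matched to 7 of the 10 members, with 12 windows in all. Nfkb1, Relb and Nfkbiz had no entry in that table. The κB consensus motif, searched on both strands, was found in 8 of these 12 windows (66.7%) and in 4.51% of the 32851 windows of all genes. At least 1 window of 6 members held a match, and the Rela window held none. Overlapping matches and matches on both strands were counted as 1 window. A pair of the Nfkb2 windows overlaps and holds the same match, so windows are not independent. A match describes the letters of the sequence and is not evidence of binding in these cells.

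The 250 bases before the start are printed for Tnfaip3, the member called with the block that has an entry, for Nfkbia, the classical feedback inhibitor, and for Rela, the member without a match. Capitals mark the κB consensus on either strand. The Tnfaip3 stretch lies on the minus strand at chr10:19015411-19015660, that of Nfkbia on the minus strand at chr12:55492648-55492897, and that of Rela on the plus strand at chr19:5637291-5637540. The starts are those of RefSeq, and the gene bounds given in this report are from GENCODE. The Rela stretch reaches into its GENCODE gene, which begins at 5637483. The Tnfaip3 stretch lies almost wholly inside its GENCODE gene, chr10:19000910-19015657. In this Tnfaip3 window the matches begin 125 and 12 bases before its start, and the window of the other annotated Tnfaip3 start holds none. Nfkbid also has 2 windows without a match beside 1 that holds it, and in Nfkbia the match begins 29 bases before it.
Tnfaip3: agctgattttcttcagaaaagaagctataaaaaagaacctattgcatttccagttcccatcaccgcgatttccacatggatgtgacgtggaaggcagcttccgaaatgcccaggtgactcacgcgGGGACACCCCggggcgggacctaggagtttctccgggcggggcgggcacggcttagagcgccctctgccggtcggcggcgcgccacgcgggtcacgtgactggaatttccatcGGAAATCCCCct
Nfkbia: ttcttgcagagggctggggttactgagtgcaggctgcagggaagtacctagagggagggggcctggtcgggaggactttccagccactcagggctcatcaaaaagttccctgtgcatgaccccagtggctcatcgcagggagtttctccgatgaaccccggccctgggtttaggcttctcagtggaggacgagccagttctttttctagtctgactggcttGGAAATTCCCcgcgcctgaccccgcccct
Rela: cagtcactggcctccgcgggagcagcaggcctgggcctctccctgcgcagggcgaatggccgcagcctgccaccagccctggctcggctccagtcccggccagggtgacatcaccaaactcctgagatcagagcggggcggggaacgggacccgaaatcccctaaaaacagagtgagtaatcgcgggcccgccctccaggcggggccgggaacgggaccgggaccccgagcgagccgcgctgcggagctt

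The other IκB genes did not pass in either fit. Nfkbia, which encodes IκBα and whose product is broken down to release NF-κB, had 24.6, 10.7 and 15.3 CPM in the CD25-high libraries 1, 2 and 3, against 34.1, 28.4 and 19.5 CPM in the CD25-low libraries 1, 2 and 3. The groups overlapped, since CD25-high library 1 lay above CD25-low library 3, but each CD25-high library lay below the CD25-low library of its number. The log2 fold change was -0.69 ± 0.35 (SE), and edgeR's adjusted p was 0.512, or 0.166 with the block. It was -1.07 without CD25-high library 1 and -0.44 without CD25-high library 2. Nfkbie, which encodes IκBε, another cytoplasmic inhibitor, had 5.67, 8.52 and 2.88 CPM in the CD25-high libraries, against 7.60, 10.1 and 12.2 CPM in the CD25-low ones. Its groups overlapped as well, with a log2 fold change of -0.81 ± 0.44 (SE) and adjusted p-values of 0.552 without and 0.298 with the block. It was -0.48 without CD25-high library 3 and -1.21 without CD25-high library 2.

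Nfkbid, which encodes the nuclear IκB protein IκBNS, had 15.1, 9.05 and 12.9 CPM in the CD25-high libraries, against 8.26, 9.03 and 15.0 CPM in the CD25-low ones. Its ranges almost coincided. The log2 fold change was 0.20 ± 0.36 (SE), at adjusted p-values of 0.888 without and 0.800 with the block, and with 1 library left out it lay between 0.03 (without CD25-high 1) and 0.52 (without CD25-low 3). Its 95% interval ran from -0.59 to 0.99, which reaches up to a level in CD25-high cells 1.98 times that in CD25-low cells.

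Among the DNA-binding subunits none passed in either fit. Rel, which encodes c-Rel, the subunit most tied to lymphocyte activation, had 110, 72.9 and 115 CPM in the CD25-high libraries 1, 2 and 3, against 136, 105 and 137 CPM in the CD25-low libraries 1, 2 and 3. Library 2 was the lowest of both groups, and each CD25-high library was below the CD25-low library of its number. The log2 fold change was -0.34 ± 0.23 (SE), and edgeR's adjusted p was 0.635, or 0.249 with the block, and the value was -0.16 without CD25-high library 2. The 95% interval, -0.85 to 0.16, spans a level in CD25-high cells of 0.554 to 1.12 times that in CD25-low cells.

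Rela, which encodes p65, the activating partner of the classical dimer, had 24.9, 15.5 and 23.9 CPM in the CD25-high libraries, against 18.3, 12.2 and 22.9 CPM in the CD25-low ones. It was the 1 member of the 10 that was higher in CD25-high cells at every library number, by 0.44, 0.35 and 0.06 on the log2 CPM scale. The groups overlapped, and the log2 fold change was 0.27 ± 0.32 (SE, adjusted p 0.823, and 0.627 with the block). It lay between 0.05 (without CD25-low library 2) and 0.49 (without CD25-low library 3) with 1 library left out. Nfkb1, which encodes p105 and its product p50, had 91.1, 74.4 and 83.0 CPM in the CD25-high libraries, against 72.3, 71.9 and 90.8 CPM in the CD25-low ones. Its log2 fold change of 0.08 ± 0.20 (SE) had the narrowest interval of the subunits, -0.37 to 0.53 (adjusted p 0.924, and 0.861 with the block), and it lay between 0.01 (without CD25-high library 1) and 0.20 (without CD25-low library 3) with 1 library left out.

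Nfkb2 and Relb, the pair of the alternative pathway, had the lowest levels per kilobase among the subunits. Nfkb2, which encodes p100 and its product p52, had 16.6, 4.42 and 6.20 CPM in the CD25-high libraries 1, 2 and 3, against 6.45, 6.90 and 6.78 CPM in the CD25-low libraries 1, 2 and 3. CD25-high library 1 stood far above the other 5, and the direction of the gene rested on it. The log2 fold change was 0.43 ± 0.49 (SE, adjusted p 0.813) and -0.34 without that library. On the opposite strand Nfkb2 shares 531 exonic bases with a non-coding transcript that has no row and 299 with Psd (Psd had 8 to 43 counts and Nfkb2 83 to 292). Since the strand setting of the counting is not given, its count is uncertain.

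Relb had 2.83, 1.92 and 0.113 CPM in the CD25-high libraries, against 4.81, 2.43 and 3.85 CPM in the CD25-low ones. The value in CD25-high library 3 rests on 2 reads, where the other libraries had 36 to 93. The log2 fold change of -1.18 ± 0.84 (SE, adjusted p 0.663, and 0.338 with the block) had a 95% interval of -3.05 to 0.68, the widest of the 10, and it was -0.63 without CD25-high library 3 and -1.85 without CD25-high library 1. With the block it was -1.59, and -2.21, -2.46 and -0.55 without the libraries numbered 1, 2 and 3. In all, 6 members (Rel, Relb, Nfkbia, Nfkbie, Nfkbiz and Tnfaip3) were lower in CD25-high cells at every library number, 1 was higher at every number, and 3 were mixed. Of these, Rel, Relb, Nfkbia and Nfkbie had overlapping groups and passed in neither fit. The share of all tested genes with the same direction at every number was not counted, so these counts cannot be set against it. The median log2 fold change of the 10 members was -0.51, beside 0.01 over all tested genes.

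**Figure D2:**
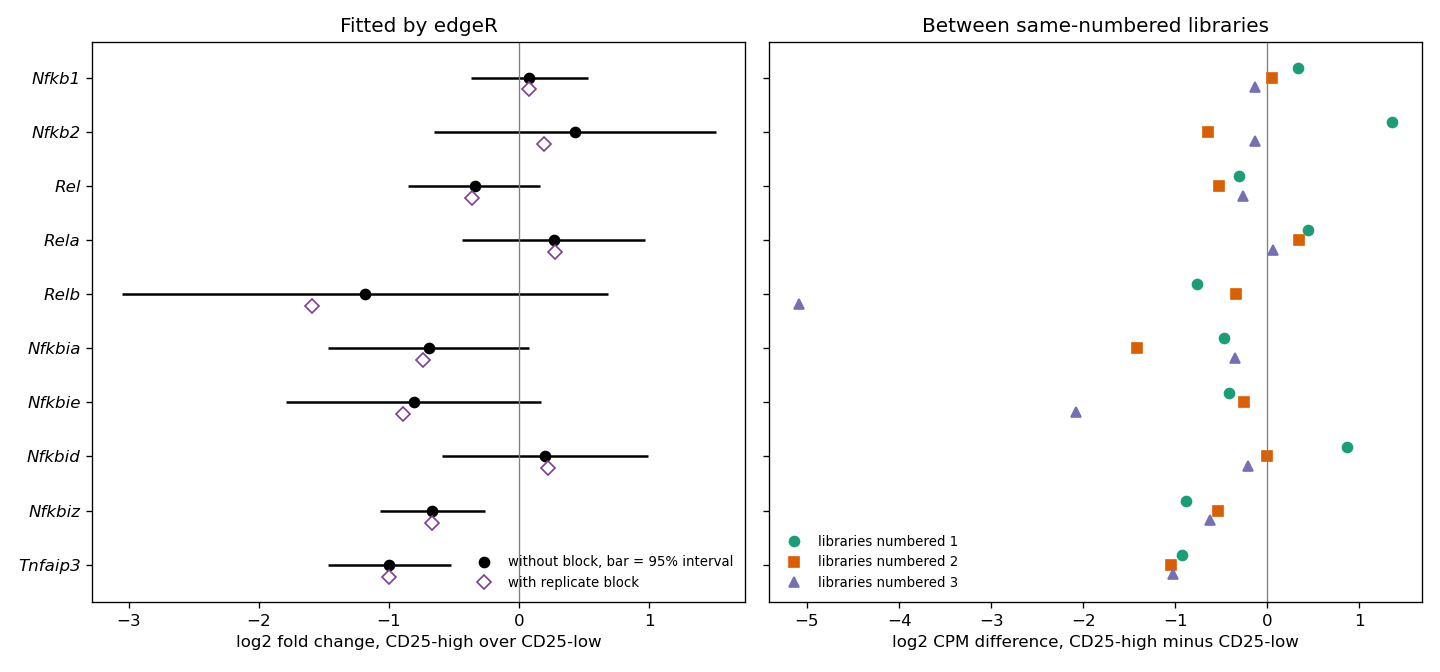
Left, log2 fold change of CD25-high over CD25-low (horizontal axis) for each member, with its 95% interval without a block (black) and the value with the replicate block (open diamonds). Right, log2 CPM difference between libraries of the same number. The intervals of Tnfaip3 (-1.47 to -0.52) and Nfkbiz (-1.07 to -0.26) lie below 0, and the other 8 include 0.

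Levels of different genes were set side by side as CPM per kilobase of exon. The cDNA came from an amplification kit, and whether it recovered all genes alike was not tested. The order of genes and the subunit shares below thus describe these libraries and may differ from the RNA in the cells. In CD25-high cells Nfkbiz led with 26.8 ± 3.17 CPM per kilobase, followed by Rel at 13.3 ± 3.04 and Nfkbia at 10.5 ± 4.39 (SD, n = 3). Rela (6.98 ± 1.67), Nfkb1 (6.87 ± 0.691) and Nfkbid (5.27 ± 1.31) came next in these cells. Tnfaip3 (3.16 ± 0.201), Nfkb2 (1.98 ± 1.43), Nfkbie (1.87 ± 0.927) and Relb (0.417 ± 0.356 CPM per kilobase) closed the order. Neighbours in it overlapped within 1 SD, except Nfkbiz and Rel, Nfkbid and Tnfaip3, and Nfkbie and Relb.

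In CD25-low cells Nfkbiz again led with 42.6 ± 0.273 CPM per kilobase, with Nfkbia at 17.0 ± 4.55 and Rel at 16.8 ± 2.44 behind it (SD, n = 3). Nfkb1 (6.49 ± 0.897), Tnfaip3 (6.30 ± 0.329), Rela (5.80 ± 1.74) and Nfkbid (4.58 ± 1.57) formed a group whose ranges of 1 SD around the mean overlapped. Nfkbie (3.27 ± 0.750) overlapped with Nfkbid, and Nfkb2 (1.46 ± 0.0503) and Relb (0.951 ± 0.309 CPM per kilobase) were lowest. Tnfaip3 thus ranked 7 of 10 in CD25-high and 5 of 10 in CD25-low cells. The place of Nfkb1 depends on the length used, since its annotated exons cover 12061 bases and its longest transcript 4149, and per kilobase of the longest transcript it ranked 2 in both groups.

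Among the 5 subunits, Rel made up less of the summed level per kilobase in CD25-high cells. Its share was 42.3%, 43.5% and 48.9% in CD25-high libraries 1, 2 and 3, against 55.4%, 53.8% and 51.2% in CD25-low libraries 1, 2 and 3. The groups did not overlap, and they did not overlap with the longest transcript as the length (28.8%, 27.8% and 33.5% in CD25-high, 39.9%, 36.5% and 35.5% in CD25-low libraries). Rela took 23.4%, 22.5% and 24.8% in CD25-high libraries and 18.2%, 15.2% and 20.8% in CD25-low libraries. With the longest transcript its groups met at 16.3%, the lowest CD25-high and the highest CD25-low share. Nfkb1 took 23.7 ± 3.25% in CD25-high and 20.7 ± 2.29% in CD25-low cells (SD over 3 libraries each), and its ranges overlapped. Relb took 2.1%, 2.2% and 0.0926% in CD25-high libraries and 3.78%, 2.39% and 2.77% in CD25-low libraries. Its groups did not overlap with either length, but its counts were low. Nfkb2 took 6.34 ± 3.53% in CD25-high and 4.73 ± 0.899% in CD25-low cells, and its ranges overlapped. The shares of a library add up to its whole, so the changes of Rel and Rela are not separate observations. These shares are a description of the members and were given no test.

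**Figure D3:**
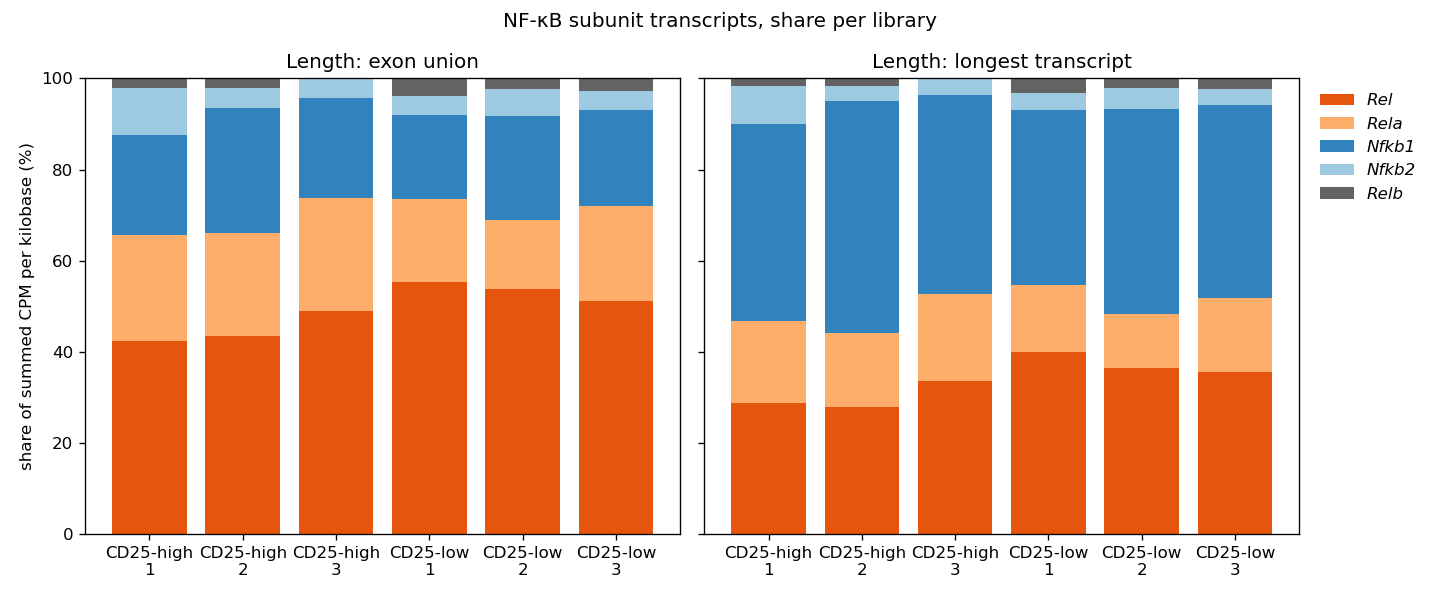
Share (vertical axis, percent) of each subunit in the summed CPM per kilobase of the 5 subunits, per library, CD25-high libraries on the left of each panel. The left panel divides by the exon union and the right by the longest transcript. The Rel band (bottom) is shorter in the CD25-high bars in both panels (44.9% on average against 53.5% in CD25-low with the exon union).

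Among genes that carry signals to NF-κB, those called were lower in CD25-high cells. Of 30 such genes tested, 0 passed without a block (8 at an unadjusted p under 0.05, which 11.1% of all tested genes passed), and with the block 3 were lower and 0 higher in CD25-high cells, where 2.90% of all tested genes were called lower and 1.73% higher. Traf1, a TRAF adaptor of tumour necrosis factor receptors, had 31.6 ± 5.69 CPM in CD25-high against 66.4 ± 6.34 CPM in CD25-low cells (SD over 3 libraries each), a log2 fold change of -1.07 ± 0.22 (SE, edgeR adjusted p 0.0738, and 0.00765 with the block). Prkcq, which encodes protein kinase C theta, a kinase of antigen receptor signalling, had 260 ± 52.7 CPM in CD25-high against 382 ± 54.4 CPM in CD25-low cells (adjusted p 0.364, and 0.0451 with the block). The groups overlapped for neither gene. With the block, Prkcq lost its call without the libraries numbered 2 or 3 (highest adjusted p 0.207), and Traf1 passed whichever pair was left out. The median log2 fold change of the list was -0.25, beside 0.01 over all tested genes. Fitted values were below 0 for 6392 of the 12987 tested genes and for 24 of the 30 genes on the list. Among the 6 others was Traf6, an adaptor of innate and TNF family receptors named after its values were seen, with 153, 98.7 and 98.8 CPM in the CD25-high libraries, against 94.0, 67.5 and 79.9 CPM in the CD25-low ones (adjusted p 0.442, and 0.103 with the block).

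Other brakes of the pathway gave 1 call with the block, beside 2.90% of all tested genes called lower. Of 19 tested genes, 0 passed without a block (4 at an unadjusted p under 0.05, beside 11.1% of all genes), and Commd1, which promotes the turnover of NF-κB subunits, was lower with it (128 ± 9.47 CPM in CD25-high against 209 ± 15.0 CPM in CD25-low cells, SD over 3 libraries each; adjusted p 0.141, and 0.0158 with the block). It lost that call without the libraries numbered 2 or 3 (highest adjusted p 0.0669). Commd1 shares 412 exonic bases with Zrsr1 on the opposite strand and 294 with Gm28048 on its own, so its count is uncertain. The median of the list was -0.03, and it lay between -0.25 (without CD25-high library 3) and 0.03 (without CD25-high library 1) with 1 library left out.

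Among 17 tested receptors and ligands that feed NF-κB, 0 passed without a block (3 at an unadjusted p under 0.05, beside 11.1% of all genes) and 2 were lower with it, beside 2.90% of all genes. Cd27, a costimulatory receptor of the tumour necrosis factor family, had 51.5, 79.9 and 73.6 CPM in the CD25-high libraries 1, 2 and 3, against 114, 191 and 221 CPM in the CD25-low libraries 1, 2 and 3. All CD25-high libraries were below all CD25-low libraries (log2 fold change -1.36 ± 0.28, SE; edgeR adjusted p 0.0679, and 0.000378 with the block). Cd27 shares 129 exonic bases with Mir8113 on its own strand. Tnfsf11, which encodes the ligand RANKL, was at low levels (2.47 ± 2.82 CPM in CD25-high against 7.57 ± 3.80 CPM in CD25-low cells, SD over 3 libraries each; adjusted p 0.471, and 0.0344 with the block), its groups overlapped, and it lost that call whichever pair was left out (highest 0.129). The median of the list was -0.44, and -0.79 without CD25-high library 1, where 19 of its genes were tested. With the block it was -0.50, and -0.70 without the libraries numbered 1.

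The listed NF-κB target genes went both ways. Inhibitors that are themselves targets were placed among the 10 members, of which 6 had a fitted value below 0 and 4 above it. Of 20 tested genes on the target list, 1 rose without a block and 4 rose and 1 fell with it. Of all tested genes, 1.73% rose and 2.90% fell with the block. Ccnd2, which encodes the G1 cyclin D2 and is also induced through the interleukin-2 receptor, rose in both fits (180 ± 37.2 CPM in CD25-high against 53.8 ± 10.4 CPM in CD25-low cells, SD over 3 libraries each; log2 fold change 1.74 ± 0.24, SE; edgeR adjusted p 0.0104). It lost the call of the fit without a block when 1 of CD25-high 3, CD25-low 2 and CD25-low 3 was left out (highest adjusted p 0.0917), and it shares 372 and 368 exonic bases with antisense transcripts. Ccl3, a chemokine, had 7.35 ± 3.80 CPM in CD25-high against 1.38 ± 1.03 CPM in CD25-low cells (adjusted p 0.184, and 0.00959 with the block). Irf4, a transcription factor scaled to antigen receptor signals, had 418, 199 and 210 CPM in the CD25-high libraries, against 172, 116 and 158 CPM in the CD25-low ones (0.301, and 0.0176 with the block). Myc, named as the last gene the block called higher, had 284, 49.7 and 75.7 CPM in the CD25-high libraries, against 90.6, 33.3 and 56.2 CPM in the CD25-low ones (0.496, and 0.0401 with the block). Without the libraries numbered 1, Irf4 and Myc lost these calls (0.0943 and 0.186). Cd83, an activation marker, fell with the block at levels near the limit of counting, with 1.93, 0.160 and 0 CPM in the CD25-high libraries, against 6.78, 3.45 and 1.94 CPM in the CD25-low ones (0.453, and 0.0358 with the block), and it lost that call without the libraries numbered 1 or 2 (highest 0.0548). The median of the list was -0.16, and with 1 library left out and no block it lay between -0.18 and -0.06. With the replicate block it was -0.00, and 0.10 without the libraries numbered 3. DESeq2 gave 0.01, limma voom 0.02, and a filter of at least 1 CPM in 3 libraries gave -0.33. The sign of this median thus depended on the fit.

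**Figure D4:**
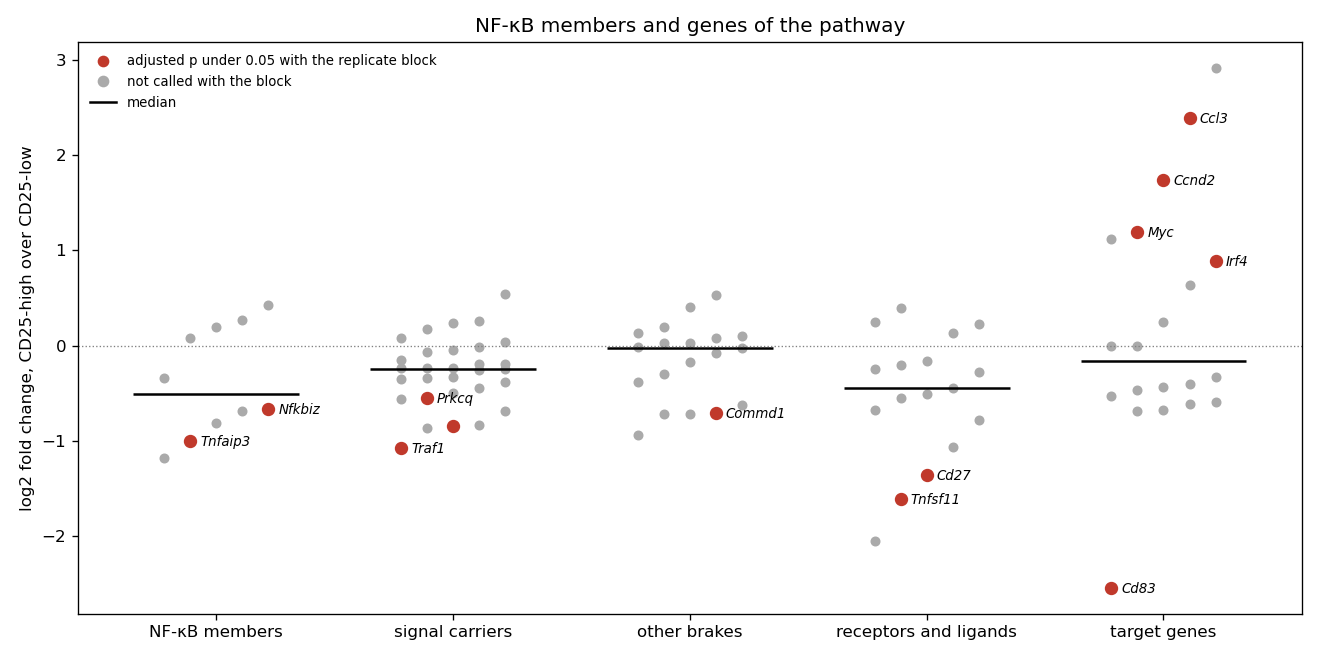
Log2 fold change of CD25-high over CD25-low without a block (vertical axis) for each tested gene of the NF-κB set and of 4 pathway lists, with the list median as a bar. Red points passed an adjusted p of 0.05 with the replicate block. The red points of the members, signal carriers, other brakes and receptors all lie below 0, and those of the target genes lie on both sides.

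Several inhibitors in the set are also known to respond to tissue handling, so a list of 14 immediate early and heat-shock genes was read beside them. Of its 12 tested genes, 0 passed without a block (4 at an unadjusted p under 0.05, beside 11.1% of all genes), 6 had a fitted value below 0 and 6 above it, and the median log2 fold change was -0.19. With the block Zfp36 and Egr1 were lower in CD25-high cells, beside 2.90% of all genes, and none was higher. The list summed to 249 to 327 CPM in CD25-high against 279 to 417 CPM in CD25-low libraries. Its genes with the most counts were Klf6 (97.1 ± 36.5 CPM in CD25-high against 71.8 ± 36.3 CPM in CD25-low cells, SD over 3 libraries each; adjusted p 0.770) and Zfp36 (52.6 ± 15.2 CPM in CD25-high against 83.9 ± 26.0 CPM in CD25-low cells; 0.442, and 0.0447 with the block). Zfp36 lost that call whichever pair was left out (highest 0.225). Egr1, also induced through the antigen receptor, had 58.3, 16.3 and 30.8 CPM in the CD25-high libraries, against 115, 77.1 and 107 CPM in the CD25-low ones (0.156, and 0.000992 with the block). The groups of Egr1 did not overlap, and it kept the block call whichever pair was left out (highest edgeR adjusted p 0.00156). Jun was separated the other way, with 6.35 CPM or more in each CD25-high library, against 3.50, 1.79 and 2.73 CPM in the CD25-low ones (0.204, and 0.0631 with the block). The part of handling in the levels of Tnfaip3 and Nfkbiz was not tested.

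The genes whose pattern over the 6 libraries was most like that of the 3 members with the smallest p were looked up among 8777 genes with a mean of at least 5 CPM. Likeness was the root mean square difference of log2 CPM after centring each gene on its mean. Gpr18, a G protein-coupled receptor, was nearest to Tnfaip3 at 0.041 log2 units, with 17.6 ± 1.68 CPM in CD25-high against 36.1 ± 2.43 CPM in CD25-low cells (SD over 3 libraries each), and Cotl1, an actin-binding protein, followed at 0.121. Zfp52 (0.064) and Shisa5 (0.079) were nearest to Nfkbiz. Thumpd2 (0.099) and Camta1 (0.179) were nearest to Nfkbia, whose groups overlapped. A match over 6 libraries says nothing of shared control.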

How the data were processed

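The deposited values are raw counts, whole numbers of reads per Ensembl gene and library. The cDNA came from an amplification kit (NuGEN Ovation v2), per the labels' protocols. The submitters' processing notes name Novoalign, DESeq2, mm10 and hg19, with no version or role. The counter, annotation, strand setting and handling of multiply matching reads were not stated in the sources used here. Every gene row of the table totals at least 10 counts.

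Genes were named and measured through GENCODE M21 (GRCm38), which matched 15169 of 15445 identifiers and left 276 unmatched. Counts were tested with edgeR 4.0.16 in R 4.3.3 (quasi-likelihood F test, TMM factors, filterByExpr with a minimum count of 10), which left 12987 genes. P-values were adjusted over all of these by the Benjamini-Hochberg method, with calls below 0.05. SE is the fold change (absolute log2) divided by √F, intervals are at 95%, and CPM uses TMM-adjusted totals. Alternatives used DESeq2 1.42.0, limma 3.58.1 voom, other scalings and filters, and left-out libraries. Fits were tested on simulated data.

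Library numbers were taken to pair libraries from the data, not from a label. Over the 2000 most variable genes, deviations from group means correlated at 0.47, 0.31 and 0.25 for numbers 1, 2 and 3, against -0.37 to 0.19 for unlike numbers. All pairs of replicates differed beyond sampling noise (chi-square 26 to 91.6 times its degrees of freedom). Members, lists and tests were chosen with earlier results of these data known. Named besides the members were, per pathway list, up to 3 called genes in each direction, the 2 most abundant genes of each marker list, and the 2 nearest profiles of 3 members, except 1 called gene that is not reported here. Egr1, Jun, Lyz2, Cd68, Cd3d, Cd3g, Thy1, Cd79a, Ms4a1, Myc, Malt1, Bcl10, Ikbkb, Traf3 and Traf6 were named after their values were seen.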

Additional observations from a re-analysis of the deposited data

How the results depend on the processing

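Tnfaip3 and Nfkbiz were lower in CD25-high cells under all alternatives run, while their calls were not stable. The number of members called was 0 in the fit without a block and 2 with the replicate block or by DESeq2. With the block and 1 pair left out it was 1 without pair 1, 1 without pair 2 and 0 without pair 3. No member was called with any single library left out and no block, where the adjusted p of Tnfaip3 lay between 0.0948 and 0.335. All genes called numbered 85 without a block, 601 with the replicate block, 376 by DESeq2, 22 to 130 with 1 library left out, and 461, 486 and 536 with the block and 1 pair left out. Calls on the 4 pathway lists numbered 1 without a block, 11 with the replicate block, 7 by DESeq2, 0 to 3 with 1 library left out, and 8 to 10 with the block and 1 pair left out. Direction turned for uncalled members. Nfkb2 lay between -0.34 (without CD25-high replicate 1) and 0.77 with 1 library left out, and was at -0.39 with the block and without pair 1, where Nfkb1 was at -0.04 and Nfkbid at -0.11. The causes of these shifts were not tested. No scaling moved the median of all genes by over 0.02 in log2 units. Depth limits Relb and Cd83, whose lowest libraries held 2 and 0 reads. At the depth of these libraries a count of 0 allows up to 0.124 to 0.170 CPM, for counting error only.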

Other observations

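Among the signal carriers that passed in neither fit, 3 with lower and 1 with a higher mean in CD25-high cells are given here, chosen after their values were seen. Bcl10, an adaptor of antigen receptor signalling, had 16.8, 41.8 and 34.5 CPM in the CD25-high libraries 1, 2 and 3, against 65.8, 52.1 and 52.1 CPM in the CD25-low libraries 1, 2 and 3 (log2 fold change -0.87 ± 0.32, SE; edgeR adjusted p 0.342, and 0.0835 with the replicate block). Malt1, a protease that binds Bcl10, had 89.0 ± 21.1 CPM in CD25-high against 132 ± 16.1 CPM in CD25-low cells (SD over 3 libraries each; log2 fold change -0.56 ± 0.22, SE; adjusted p 0.379, and 0.0729 with the block). Ikbkb, which encodes an IκB kinase subunit, averaged 83.3 ± 2.46 CPM in CD25-high against 107 ± 10.1 CPM in CD25-low cells, with no overlap between the groups (0.532, or 0.286 with the block). Traf3, a TRAF adaptor that restrains the alternative pathway, averaged 46.8 ± 3.27 CPM in CD25-high against 39.2 ± 2.42 CPM in CD25-low cells, again with no overlap (0.699, or 0.547 with the block). Of all tested genes, 9.54% had all CD25-high libraries below all CD25-low libraries, as Ikbkb did. The share separated in the direction of Traf3 was not counted.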
